A study of Mus musculus with 12 samples.

Results

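Catalase (Cat), glutathione peroxidase 1 (Gpx1) and the Nudix hydrolase Nudt7 were followed in liver RNA of mice without hemopexin, without haptoglobin or without both proteins, each set against wild-type liver. The spots were taken by gene name from the table of ratios: 8 of 4167 spots with a value, which form 4 of 2151 measured clones and 3 of 918 measured named genes. Cat had 1 clone (spots 13005 and 13006), Gpx1 had 2 (spots 22621 and 22622, and spots 26007 and 26008) and Nudt7 had 1 (spots 5561 and 5562). These were all the clones that the platform annotation lists for the 3 genes, and every one of them was measured. The names rest on an inferred, reversed spot numbering: spot k takes the name listed for spot 31201 minus k. With the numbering read directly, 0 of the 4 clones had a value, so nothing below holds for these genes if the inference is wrong. The genes were chosen by their log2 ratios on these same arrays, so the ratios are given as a description. Where a fit over all features also called 1 of the 3 genes, the call is listed beside the share of all features called and is no independent evidence.

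Hydrogen peroxide forms in liver from peroxisomal oxidases, mitochondria and the reactions of iron and heme. Catalase splits it to water and oxygen and is concentrated in the peroxisome, while Gpx1, a selenium enzyme of cytosol and mitochondria, reduces it with glutathione. Nudt7 sits in the peroxisome and cleaves coenzyme A and its fatty acyl esters, and its transcript is known to be more abundant in male than in female mouse liver. Hemopexin carries free heme in plasma and haptoglobin carries free hemoglobin. The study compared liver transcripts of mice lacking 1 or both of these carriers with wild-type liver.

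The groups were Hx-null, Hp-null and HpHx-null mice, adult littermates of the wild-type mice, bred from parents heterozygous for both genes on the mixed C57/BLJ6 X 129Sv background. Livers of at least 5 perfused mice per genotype were pooled, and 4 spotted cDNA arrays per null set its pool beside the wild-type pool. The null RNA was labelled with Cy5 on replicates 1 and 2 and with Cy3 on replicates 3 and 4. Nothing in the labels gives more than 1 pool per genotype, so spread here is spread between arrays, not between mice, and all 3 nulls share the wild-type pool. The sex of the mice is not given in the sources used here. In pooled tissue, fewer cells of a type and less RNA per cell cannot be told apart.

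The 300-base windows around the RefSeq start sites of the 3 genes (GRCm38.p6, 250 bases before to 50 bases after the start) are shown because every array of set 1, described below, lay above every array of set 2 for Cat and both Gpx1 clones but not for Nudt7. That order without overlap held for 539 (28.8%) of 1872 clones on at least 9 arrays, and the reverse order for 433. Both sets hold arrays of the same pools, and a link between the windows and this order was not tested. Capitals mark matches, on either strand, to a CCAAT box (CCAAT), a GC box (GGGCGG) or the hexamer AGGTCA bound by nuclear receptors.
Cat, chr2:103485104-103485403, minus strand: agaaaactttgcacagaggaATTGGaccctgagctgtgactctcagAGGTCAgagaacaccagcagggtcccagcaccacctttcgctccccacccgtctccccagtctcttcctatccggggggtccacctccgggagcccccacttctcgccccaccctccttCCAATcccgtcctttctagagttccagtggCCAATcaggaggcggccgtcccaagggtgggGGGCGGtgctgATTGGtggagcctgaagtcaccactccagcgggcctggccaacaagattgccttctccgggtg
Gpx1, chr9:108338830-108339129, plus strand: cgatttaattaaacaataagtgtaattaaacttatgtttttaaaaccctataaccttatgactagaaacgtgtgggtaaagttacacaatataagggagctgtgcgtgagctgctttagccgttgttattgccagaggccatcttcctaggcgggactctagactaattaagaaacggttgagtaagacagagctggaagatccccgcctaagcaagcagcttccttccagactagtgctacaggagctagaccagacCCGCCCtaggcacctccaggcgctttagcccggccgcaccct
Nudt7, chr8:114133324-114133623, plus strand: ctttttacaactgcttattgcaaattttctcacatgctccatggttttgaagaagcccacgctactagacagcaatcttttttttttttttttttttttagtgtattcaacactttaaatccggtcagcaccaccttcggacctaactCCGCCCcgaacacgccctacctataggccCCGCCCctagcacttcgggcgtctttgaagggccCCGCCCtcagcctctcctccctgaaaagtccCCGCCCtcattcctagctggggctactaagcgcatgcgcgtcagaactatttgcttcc
The Cat window held 4 CCAAT boxes, 1 GC box and 1 AGGTCA. The Gpx1 window held 1 GC box and the Nudt7 window 4, as did the window of a second annotated Nudt7 start, and none of these held a CCAAT box or AGGTCA. Of 27025 windows of this length, 37.9% held CCAAT, 35.9% GGGCGG and 16.0% AGGTCA. No window of the 3 genes held the antioxidant response core TGACNNNGC (12.5% of all windows), the direct repeat of AGGTCA with 1 base between that PPAR-alpha binds (0.0444%, each of which also holds AGGTCA) or TATAAA (14.2%). A match is a string of letters and not a shown binding site, and the arrays did not measure binding.

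The sign of a ratio could not be given a settled direction. A positive value stands for more null RNA only where the ratio was formed as null over wild-type, and arrays with the same labelled dyes correlated at -0.78 to -0.25 over all clones within Hp-null and within HpHx-null. By the sign of the first principal component, computed on 1160 other clones and holding 72.0% of the sum of squares, the arrays fell into 2 sets of 6. Set 1 was Hx-null replicates 1 and 2, Hp-null replicates 2 and 3, and HpHx-null replicates 1 and 4. Set 2 was the other 6 arrays. Correlations were 0.47 to 0.90 within a set and -0.80 to -0.16 between sets, and set and labelled dye differed on 4 arrays. The sets were read from the values and are no groups of the study. Values below are log2 ratios with the deposited sign after each array was centred on its median.

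Cat changed sign between arrays of the same genotype. In Hx-null its log2 ratio was 1.77, 1.86 and -1.45 on replicates 1 to 3, with no value on replicate 4. In Hp-null the 4 arrays gave -1.04, 1.51, 2.31 and -1.05. In HpHx-null replicates 1, 2 and 4 gave 1.98, -0.77 and 1.94, and replicate 3 had no value. All 3 genotypes thus had arrays of both signs and of similar size, and their ranges overlapped. The arrays without a value for Cat were those with the fewest measured spots, 3088 and 3009.

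The sign of Cat followed the array set. The 6 arrays of set 1 lay between 1.51 and 2.31 and the 4 measured arrays of set 2 between -1.45 and -0.77. The means differed by 2.97, the fourth highest such difference among 1872 clones measured on at least 9 arrays, for which the 5th percentile was -0.83, the median -0.08 and the 95th percentile 1.80. Within the sets the SD of Cat was 0.27, against a median of 0.19 over clones. Mean ratios of Cat by genotype therefore carried SDs larger than themselves: 0.73 ± 1.88 in Hx-null (SD, n = 3 arrays), 0.43 ± 1.74 in Hp-null (SD, n = 4 arrays) and 1.05 ± 1.58 in HpHx-null (SD, n = 3 arrays).

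**Figure D1:**
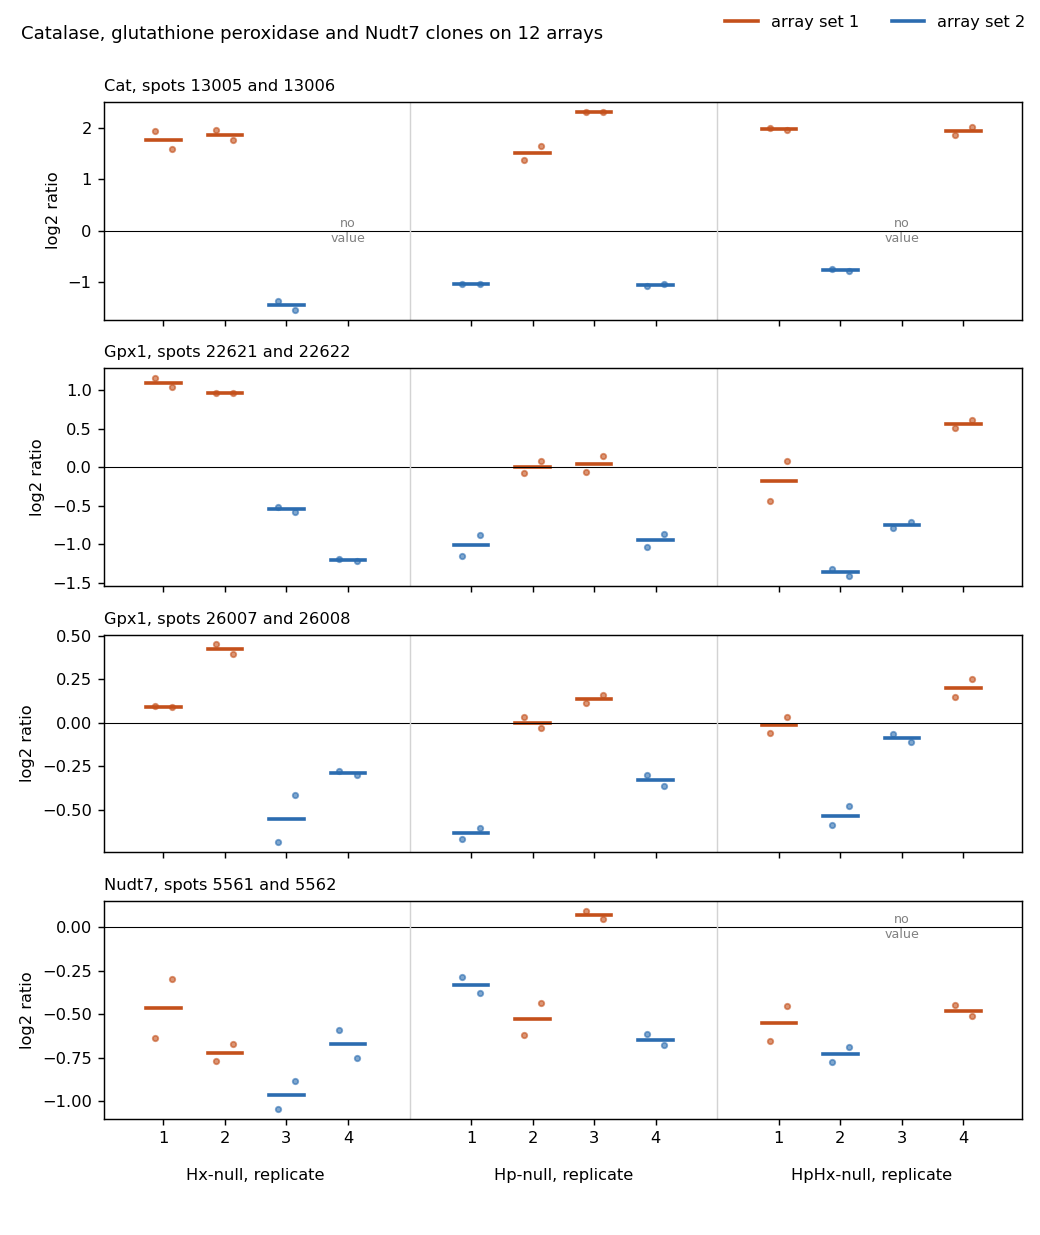
Log2 ratio (y axis, own scale in each panel) of the 4 clones on each of the 12 arrays (x axis, by genotype and replicate); points are the duplicate spots, bars their mean, orange array set 1 and blue array set 2. Cat lies between 1.51 and 2.31 on set 1 and between -1.45 and -0.77 on set 2, while Nudt7 is below 0 on 10 of 11 arrays.

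The 2 Gpx1 clones had the same sign on all 12 arrays but differed in size. The clone at spots 22621 and 22622 gave 1.10, 0.97, -0.55 and -1.20 in Hx-null, -1.01, 0.00092, 0.048 and -0.95 in Hp-null, and -0.18, -1.37, -0.75 and 0.56 in HpHx-null. The clone at spots 26007 and 26008 gave 0.093, 0.42, -0.55 and -0.29 in Hx-null, -0.63, 0.0015, 0.14 and -0.33 in Hp-null, and -0.012, -0.53, -0.088 and 0.20 in HpHx-null. The first clone was highest on replicate 1 and the second on replicate 2 of Hx-null. The first was lowest on replicate 2 of HpHx-null and the second on replicate 1 of Hp-null. Over the 12 arrays the SD was 0.84 for the first clone and 0.33 for the second, and the clones correlated at 0.84, or 0.41 after the mean of each set was taken out. These correlations describe 12 arrays that share the 4 pools. For both clones every array of set 1 lay above every array of set 2, as Cat did, a pattern of 28.8% of clones on at least 9 arrays. The difference between set means was 1.39 for the first clone and 0.54 for the second. Over 10 arrays Cat correlated with the first clone at 0.80 and with the second at 0.92. Once the set means were taken out these values were -0.42 and 0.14, so the higher values came from the difference between the sets.

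By genotype the Gpx1 clones averaged near or below 0. For Hx-null, Hp-null and HpHx-null the first clone had 0.08 ± 1.13, -0.48 ± 0.58 and -0.43 ± 0.82, and the second -0.08 ± 0.43, -0.21 ± 0.35 and -0.11 ± 0.31 in the same order (SD, n = 4 arrays each). The clones differed in sign in Hx-null, by less than the spread of either. Within the sets the first clone was lower on set 1 in Hp-null (0.02) and HpHx-null (0.19) than in Hx-null (1.03), whereas on set 2 its means were -0.98, -1.06 and -0.87 in that order. The means of this clone lay further apart on set 1 than on set 2. In the same order the second clone had 0.07, 0.09 and 0.26 on set 1 and -0.48, -0.31 and -0.42 on set 2, about equally far apart on both.

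Nudt7 kept 1 sign on nearly all arrays. Its log2 ratio was -0.47, -0.72, -0.97 and -0.67 in Hx-null. In Hp-null it was -0.33, -0.53, 0.073 and -0.65. In HpHx-null it was -0.55, -0.73 and -0.48 on replicates 1, 2 and 4, with no value on replicate 3. The array above 0 was replicate 3 of Hp-null, and the ranges of the 3 genotypes overlapped. Of 1737 clones measured on at least 10 arrays, 12 (0.691%) had at most 1 positive array, and Nudt7 was among them. Its mean over 11 arrays, -0.55, was the seventh lowest of 1872 clones, whose 5th percentile was -0.20. Nudt7 correlated with Cat at 0.50 over 10 arrays and with the Gpx1 clones at 0.21 and 0.31 over 11. Once the set means were taken out, these values were 0.61 with Cat and -0.37 and -0.22 with the Gpx1 clones.

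Nudt7 differed little between the array sets, with means of -0.45 on set 1 and -0.67 on set 2, and the sets overlapped. Its mean ratio was -0.71 ± 0.20 in Hx-null (SD, n = 4 arrays), -0.36 ± 0.32 in Hp-null (SD, n = 4 arrays) and -0.59 ± 0.13 in HpHx-null (SD, n = 3 arrays). The fitted ratio in Hx-null has a size of 1.63-fold. The order of the genotypes, lowest in Hx-null and nearest 0 in Hp-null, was the same within both sets: -0.59, -0.52 and -0.23 on set 1 and -0.82, -0.73 and -0.49 on set 2 for Hx-null, HpHx-null and Hp-null, with 1 array for HpHx-null on set 2. The single Hp-null array above 0 belongs to set 1.

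**Figure D2:**
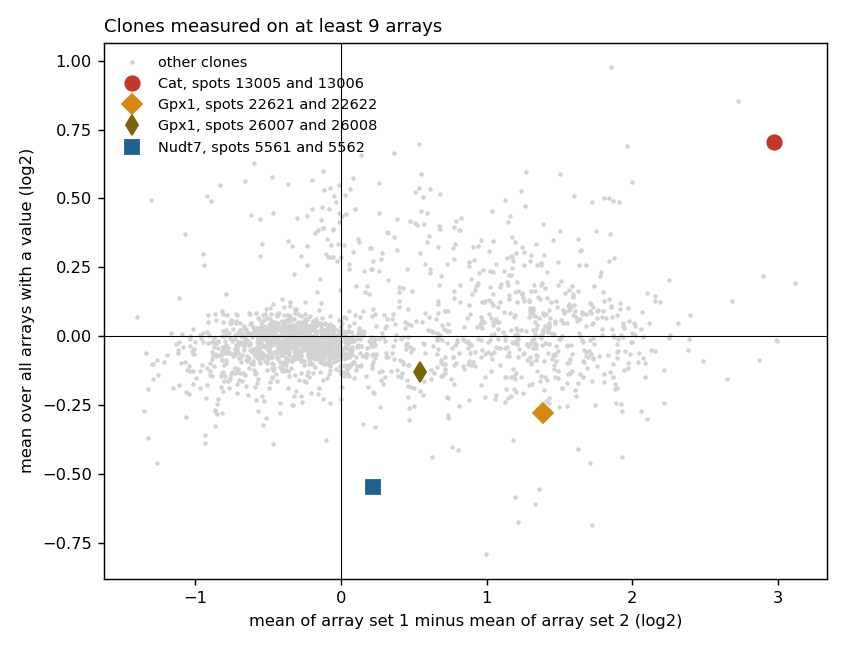
Mean of array set 1 minus mean of array set 2 (x axis, log2) against the mean over all arrays with a value (y axis, log2) for 1872 clones measured on at least 9 arrays. Cat stands at 2.97 on the x axis, Nudt7 at -0.55 on the y axis with a set difference of 0.22, and the Gpx1 clones at set differences of 1.39 and 0.54.

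Each clone was printed as adjacent duplicate spots, and these gave the same picture. Over the arrays the duplicates correlated at 0.99 for Cat, 0.98 and 0.96 for the Gpx1 clones and 0.85 for Nudt7. Their mean absolute difference was 0.13 for Cat, 0.15 and 0.078 for the Gpx1 clones and 0.14 for Nudt7. On no array were the duplicates of Nudt7 more than 0.34 apart, which is smaller than the size of its mean ratio in each genotype.

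A model over all arrays gave fitted ratios with their errors. It had 1 coefficient per genotype and a dye term taken from the labels, and used limma with Benjamini-Hochberg adjustment over all features, each a named gene or an unnamed clone. The 3 genes were fitted in all 3 nulls, Cat on 10 and Nudt7 on 11 arrays. The log2 ratio of Cat was 0.66 (SE 0.96), 0.43 (SE 0.82) and 0.99 (SE 0.96) for Hx-null, Hp-null and HpHx-null. Gpx1, as the mean of its clones, had -0.00078 (SE 0.29), -0.34 (SE 0.29) and -0.27 (SE 0.29) in the same nulls. Nudt7 had -0.71 (SE 0.13), -0.36 (SE 0.14) and -0.59 (SE 0.16). Of the 3 genes 0 passed an adjusted p of 0.05 in any null, where 0.643% of features passed for Hx-null, 0% for Hp-null and 0% for HpHx-null. At an unadjusted p of 0.05, 70 of 1865 features passed for Hx-null, 49 of 2017 for Hp-null and 99 of 1711 for HpHx-null. Nudt7 in Hx-null did pass without a dye term, on the Hx-null arrays alone, and without replicate 3 of Hp-null. In these settings 14 of 1865, 133 of 1865 and 13 of 1997 features passed.

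With a term for the array sets in place of the labelled dyes, the errors were smaller for all 3 genes. Cat then had 0.23 (SE 0.13), 0.43 (SE 0.11) and 0.55 (SE 0.13) for Hx-null, Hp-null and HpHx-null. Gpx1 had the same ratios as before with an SE of 0.11 in each null. Nudt7 had -0.71 (SE 0.10), -0.36 (SE 0.10) and -0.63 (SE 0.12). Nudt7 passed in Hx-null and Cat and Nudt7 passed in HpHx-null, where 2.09% and 5.38% of features passed, and 0 of the 3 passed in Hp-null, where 2.78% did. Nudt7 in Hx-null passed with each of the 12 arrays left out in turn, while single arrays changed the other calls. In HpHx-null, Nudt7 no longer passed without replicate 1 or 2 of HpHx-null, and Cat no longer passed without any 1 array of HpHx-null, replicate 1 of Hx-null, or replicate 1 or 4 of Hp-null. In Hp-null, Cat passed without replicate 2 of Hp-null (0.59) and Nudt7 without replicate 3 of Hp-null (-0.48). In these settings 12 and 104 features passed, against 56 with all arrays.

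**Figure D3:**
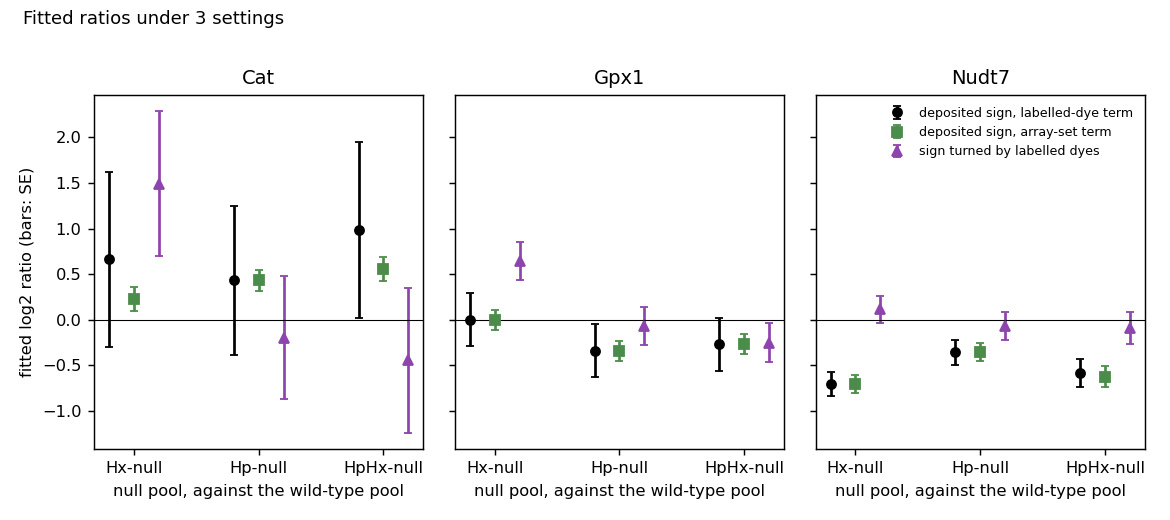
Fitted log2 ratio against the wild-type pool (y axis, bars SE) of Cat, Gpx1 and Nudt7 in each null (x axis) with the labelled-dye term, with the array-set term, and with the sign turned by the labelled dyes. Nudt7 in Hx-null is at -0.71 under both terms and at 0.11 with the sign turned, and Cat in Hx-null has an SE of 0.96 with the dye term and 0.13 with the set term.

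The ratios depend on the direction given to the arrays. With the sign turned on the arrays with null RNA in Cy3, as for a table of Cy5 over Cy3, Cat in Hx-null was 1.77, 1.86 and 1.45, all of 1 sign, while 2 of 3 genotypes, Hp-null and HpHx-null, still held both signs. The fitted ratio of Cat was then 1.49 (SE 0.79) in Hx-null, -0.20 (SE 0.68) in Hp-null and -0.44 (SE 0.80) in HpHx-null. Gpx1 had 0.65 (SE 0.21), -0.07 (SE 0.21) and -0.25 (SE 0.21). Nudt7 came to 0.11 (SE 0.15), -0.07 (SE 0.15) and -0.09 (SE 0.17), because its arrays then differed in sign. Under this reading 0 of the 3 genes and 0% of all features passed in any null (limma). At an unadjusted p of 0.05, 239 of 1865 features passed for Hx-null, 0 of 2017 for Hp-null and 1 of 1711 for HpHx-null. Thus Nudt7 was negative on 10 of 11 arrays as deposited, and Cat and both Gpx1 clones were positive on all measured arrays of Hx-null when turned. In Hx-null the labelled dye coincided with the array set, so turning there restated the set difference. The share of all clones with that Hx-null pattern was not computed. Of clones on at least 9 arrays, 23.8% were positive on every set 1 array and negative on every set 2 array. The labels do not settle which reading holds.

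Between the nulls the wild-type pool cancels. Nudt7 in Hp-null minus Hx-null was 0.35 (SE 0.19, 95% interval -0.08 to 0.78) with the labelled dyes and 0.35 (SE 0.14) with the set term, in HpHx-null minus Hx-null 0.12 (SE 0.20) and 0.08 (SE 0.15), and in HpHx-null minus Hp-null -0.23 (SE 0.20) and -0.27 (SE 0.15). Gpx1 in Hp-null minus Hx-null was -0.34 (SE 0.41) with the labelled dyes and -0.34 (SE 0.15) with the set term, in HpHx-null minus Hx-null -0.27 (SE 0.41) and -0.27 (SE 0.15), and in HpHx-null minus Hp-null 0.07 (SE 0.41) and 0.07 (SE 0.15). Cat in Hp-null minus Hx-null was -0.23 (SE 1.26) with the labelled dyes and 0.20 (SE 0.18) with the set term, so its direction differed between the terms. In HpHx-null minus Hx-null Cat had 0.32 (SE 1.34) and 0.32 (SE 0.19), and in HpHx-null minus Hp-null 0.56 (SE 1.27) and 0.12 (SE 0.18). For Cat in Hp-null minus Hx-null the 95% interval was -3.15 to 2.69 with the labelled dyes and -0.18 to 0.59 with the set term. With the sign turned, Hp-null minus Hx-null was -1.69 (SE 1.04) for Cat, -0.71 (SE 0.30) for Gpx1 and -0.18 (SE 0.21) for Nudt7, so the difference of Nudt7 turned negative. HpHx-null minus Hx-null was then -1.94 (SE 1.11), -0.90 (SE 0.30) and -0.20 (SE 0.23), and HpHx-null minus Hp-null was -0.25 (SE 1.05), -0.18 (SE 0.30) and -0.02 (SE 0.23). Under neither term, and not with the sign turned, did any of the 3 genes pass in a comparison of nulls, where 0.595%, 0% and 0% of features passed with the labelled dyes, 1.14%, 0.181% and 0% with the set term, and 0% with the sign turned.

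Few other genes of peroxide and peroxisome metabolism were measured. Of 39 listed peroxide and thiol enzymes 6 had a value, and of 62 genes listed as peroxisomal 8, with Cat and Sod1 in both lists. The 8 include Abcd4, described below as acting at lysosomes, so this list is wider than peroxisomal enzymes. No peroxin, the proteins that build peroxisomes, was measured out of 19. Apart from the 3 genes, 0 members of either list passed in any null under either term (limma, Benjamini-Hochberg). The median log2 ratio of the peroxide list was -0.08 in Hx-null and -0.20 in Hp-null over 6 members, and -0.0032 in HpHx-null over 4. For the peroxisomal list it was -0.05 and -0.10 over 8 members and -0.02 over 6. Medians of all features were -0.0019, -0.02 and -0.02. The list medians include the chosen genes: Cat in both lists, Gpx1 in the peroxide list and Nudt7 in the peroxisomal list.

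The larger ratios in these lists also followed the array set. Scp2, which carries sterols and thiolyses branched fatty acids in peroxisomes, averaged 1.08 on set 1 and -1.11 on set 2. The superoxide dismutase Sod1, which makes hydrogen peroxide from superoxide, averaged 0.64 and -1.41 over 9 arrays. The peroxiredoxin Prdx1 had 0.32 and -0.40, and Prdx2 -0.03 and -0.05. Thioredoxin (Txn1) and Gnpat, which starts ether lipid synthesis, ran the other way, at -0.53 and 0.04 for Txn1 and at -0.20 and 0.24 for Gnpat. Idh1, which makes NADPH, had 0.15 and -0.05, Abcd4, a transporter needed to release vitamin B12 from lysosomes, 0.44 and -0.71, and the membrane protein Mpv17 -0.05 and -0.51. Of the 9 other measured genes 7, with Prdx2 among them, were higher on set 1 and 2 lower, against 44.3% of clones higher on set 1. The first count is of gene means and the share is of single clones on at least 9 arrays. The 2 are not like for like, and 9 genes are few. Selenop, the selenium carrier of plasma, and Selenow, both selenoproteins like Gpx1, were higher on set 1 as well, by 1.30 and 1.41.

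**Figure D4:**
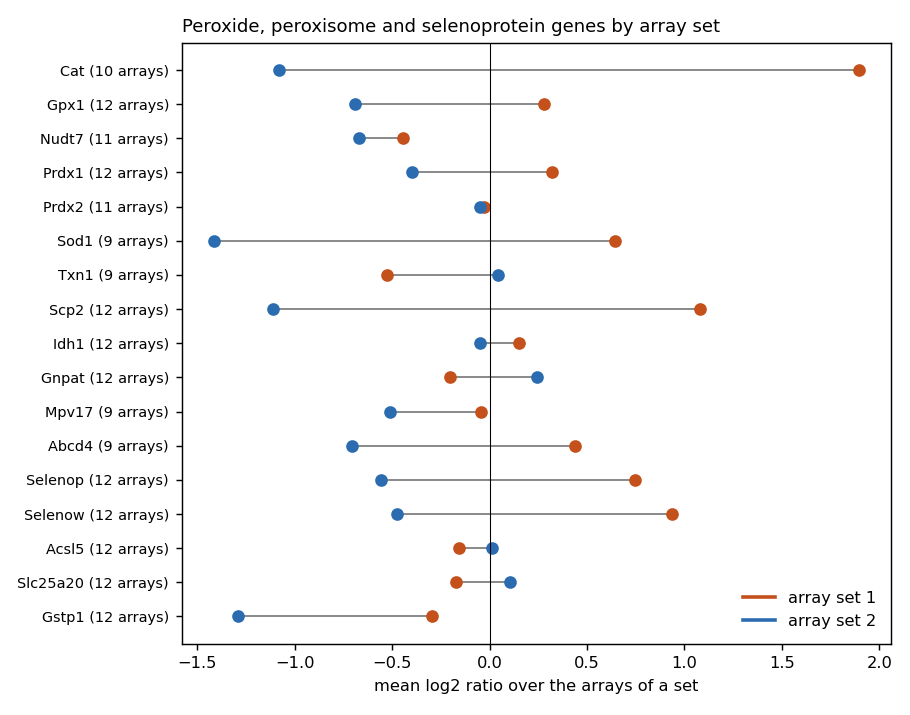
Mean log2 ratio over array set 1 (orange) and array set 2 (blue) for the 3 genes and the other measured genes of the peroxide, peroxisome, selenoprotein, coenzyme A and PPAR-alpha lists and for Gstp1 (y axis, with the number of arrays). Cat spans -1.08 to 1.89, Scp2 -1.11 to 1.08 and Nudt7 -0.67 to -0.45.

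Among genes close to Nudt7 in role or sex bias, few had a value. Nudt7 was the single measured member of 23 Nudix hydrolases. In the coenzyme A list of 20 genes, Acsl5, an acyl-CoA synthetase, was the other measured one, at -0.16 on set 1 and 0.01 on set 2. In the list of 35 PPAR-alpha targets the measured ones were Cat and Slc25a20. Of 25 male-biased liver genes 3 were measured, namely Nudt7, the glutathione transferase Gstp1 and the protease inhibitor Serpina1e. Gstp1 was also negative nearly throughout, on 11 of 12 arrays, with means of -0.30 on set 1 and -1.29 on set 2, so that it followed the set while staying below 0. With the set term Gstp1 passed in all 3 nulls, at -0.86 (Hx-null), -0.59 (Hp-null) and -0.92 (HpHx-null; limma adjusted p = 0.00117, 0.0319 and 0.00346). Its adjusted p with the labelled dyes was 0.841, 0.999 and 0.46. Serpina1e averaged 2.21 on set 1 and -0.51 on set 2, and with the set term passed in HpHx-null at 1.37 (limma adjusted p = 0.00346, against 0.999 with the labelled dyes). The sets were read from values on these arrays, with only the clones of Cat, Gpx1 and Nudt7 left out. Adjusted p-values with the set term are therefore no independent evidence. Of 24 female-biased genes Prom1 alone had a value, at -0.34 on set 1 and 0.37 on set 2. A difference in the sexes pooled was not tested.

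After the set means were taken out, the named genes most like each of the 3 were found by Pearson correlation. For Nudt7 they were Rhot2 (0.87), Hcfc1 (0.79) and Ykt6 (0.78) over 11 arrays and 584 genes. For Cat they were Spc24 (0.80), Ube4b (0.80) and Sppl2a (0.75) over 10 arrays and 660 genes. For Gpx1 they were Bola2 (0.77), the chaperone Hspa5 (0.74) and Cox4i1 (0.72) over 12 arrays and 545 genes. None of these is in the peroxide or peroxisome lists. The 95th percentile over the genes compared was 0.48 for Nudt7, 0.53 for Cat and 0.56 for Gpx1. Before the set means were taken out, Spc24, Ube4b and Sppl2a correlated with Cat at 0.99, 0.29 and -0.54. Bola2, Hspa5 and Cox4i1 correlated with Gpx1 at -0.24, 0.94 and 0.71, and Rhot2, Hcfc1 and Ykt6 with Nudt7 at 0.24, 0.53 and 0.07. The 95th percentile was then 0.97 for Cat, 0.87 for Gpx1 and 0.44 for Nudt7. All of these values come from arrays that share 4 pools.

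Of 26 hepatocyte markers 4 were measured, and none of 12 erythroid, 13 lymphocyte, 10 endothelial, 10 stellate and fibroblast or 7 bile duct markers had a named clone. Albumin (Alb) averaged 0.96 on set 1 and -0.56 on set 2. Apoa1 averaged 0.94 and -0.96, and Ttr 0.54 and -0.80, so these hepatocyte transcripts took the sign of Cat on both sets, as did Serpina1e. Of the 15 macrophage markers Fcgr1 and Fcer1g were measured, with set differences of -0.28 and -0.41, and of the 10 neutrophil markers Ltf and Csf3r, with 0.02 and 1.31. With the set term Ttr passed in Hp-null at -0.55 and Fcgr1 in HpHx-null at 0.52 (limma adjusted p = 0.0383 and 0.0151). In these nulls 2.78% and 5.38% of all features passed. The median of the 4 hepatocyte markers in Hp-null was -0.09, against -0.01 over all features. That of the 2 macrophage markers in HpHx-null was 0.22, against -0.03, so neither single call stands for its cell type. The part of cell composition in the ratios of Cat, Gpx1 and Nudt7 was not tested.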

How the data were processed

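The authors deposited 1 table of log ratios for 31200 spots on 12 arrays, taken here as log2 values from -2.89 to 3.48; the log base, normalization, spot filter and direction have no statement in the labels. An array held 3009 to 4165 values, and the number of arrays limits the precision. Each array was centred on its median (deposited medians -0.20 to 0.22), adjacent spots were averaged to clones (duplicate correlations 0.90 to 0.98) and clones of a gene to genes. Of the annotation's spots, 18384 carry 1 symbol, 514 several and 12302 are not listed; RefSeq (GRCm38.p6), matched by Entrez number, held 18172 of the single ones and changed 0 symbols. The deleted genes, Hp and Hpx, are in the hepatocyte list but not among its 4 members with a named measured clone. They therefore do not check the labels. The reversed numbering was inferred in earlier work on these data, by counting how often different clones of 1 gene were measured together. limma 3.58.1 in R 4.3.3 (lmFit, robust variance moderation, tested on simulated data) fitted features with at least 3 values in each genotype compared. P-values measure spread between arrays of 1 pair of pools. Those with the set term also rest on sets read from the same values. Named were the 3 genes, measured peroxide and peroxisome genes, other list genes past the threshold, and the 3 genes most correlated with each; Selenop, Selenow, Acsl5, Slc25a20, Prom1, Alb, Apoa1, Fcer1g, Ltf and Csf3r were added after their values were seen. The members and lists were chosen with earlier results of these data known. Alternatives covered centring, scaling, dye terms, sign, moderation, filters, duplicates and left-out arrays.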

Additional observations from a re-analysis of the deposited data

How the results depend on the processing

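Of 216 alternative values of the fitted ratios of Cat, Gpx1 and Nudt7, 214 moved by less than the SD between arrays of the genotype. The exceptions were Nudt7 with the sign turned by the labelled dyes, at 0.11 in Hx-null and -0.0885 in HpHx-null. With the sign turned, Gpx1 in Hx-null also went from -0.00078 to 0.65 and Cat in HpHx-null from 0.99 to -0.44. Both moves stayed below the SD between arrays, which for these 2 genes holds the difference between the array sets. A move below that SD is thus no sign of a stable ratio. For Cat that SD is large: with 1 array left out its ratio ran from 0.16 to 2.20 in Hx-null (highest without Hx-null replicate 3), from -0.37 to 1.08 in Hp-null (negative without Hp-null replicate 3) and from 0.07 to 1.96 in HpHx-null (lowest without HpHx-null replicate 4). Gpx1 ran from -0.22 to 0.24 (above 0 without Hx-null replicate 3 or 4), -0.55 to -0.12 and -0.56 to 0.02 (above 0 without HpHx-null replicate 2), and Nudt7 from -0.80 to -0.61, -0.52 to -0.25 and -0.66 to -0.52. Features called in Hx-null numbered 12 with the labelled dyes, 39 with the set term, 133 on its own arrays, 7 as deposited, 5 with quantile scaling, and 0 with the sign turned or on features with all 12 arrays. In Hp-null 0 passed with the dyes in limma and 56 with the set term. In HpHx-null 0 passed with the dyes, 92 with the set term, 7 without a dye term and 7 on features with all arrays. In Hp-null against Hx-null 11 passed, 21 with the set term, 2 on even-numbered spots and 0 as deposited, with quantile scaling, turned sign, unmoderated test, own arrays, complete features or odd-numbered spots. In HpHx-null against Hx-null 0 passed and 3 with the set term. With 1 array left out these counts were 0 to 13 in Hx-null (0 without Hx-null replicate 1, 2 or 3), 0 in Hp-null, 0 to 2 in HpHx-null (2 without Hp-null replicate 4) and 0 to 9 in Hp-null against Hx-null, and with the set term, chosen after the data were seen, 24 to 87, 8 to 104 and 33 to 94 in the 3 nulls. The cause was not tested. With the replicate number as a block 0 features passed in all 6 comparisons. Same-numbered arrays correlated at -0.87 to 0.86 in their deviations, positive where both lay in the same array set and negative otherwise. The set difference was not taken out, so these correlations cannot show whether the numbers pair the arrays. Cat and Nudt7 gave no value on features with all 12 arrays.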
